A study of Rattus norvegicus with 3 samples.

Results

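The organic anion and cation transporters of the renal proximal tubule were followed as 9 genes: Slc22a6, Slc22a8, Slc22a7, Slco4c1, Slc22a12, Slc22a2, Slc47a1, Slc22a4 and Slc22a5. They were chosen by name as carriers of organic anions, organic cations or carnitine in this part of the rat nephron, and their probes were found through the RefSeq accession printed on the array. All 9 genes were found among the 14179 genes tested, each through 1 probe with 1 spot per array. Each of the 9 probes was well above background in both colours on all 3 arrays. The kidneys came from male Sprague-Dawley rats that were 5 weeks old when bought, before acclimation and treatment. The treated rats (G200) received γ-aminobutyric acid (GABA) in their drinking water at 200 ppm, over 3 weeks by the methods, and the control rats received none. The labels give 3 rats per group and describe the tissue as a kidney region free of tumor. On each of 3 Agilent arrays with 2 colours, control RNA carried Cy3 (green) and G200 RNA carried Cy5 (red).

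No array had the dyes exchanged and all arrays lay on 1 slide, so an effect of the dye and an effect of GABA cannot be told apart. The 3 green control channels varied little. For 1390 probes printed at least 5 times, arrays were compared with the replicate spots inside an array by their squared differences. The quotient was 0.218 to 0.520 for the green channel and 1.90 to 3.47 for the red channel. The control was therefore counted as 1 sample, and the tests leave out the spread between control rats. Ratios are given as log2 of G200 over control, so that values above 0 stand for more signal in G200. The mean ratio over the arrays was tested against 0 with limma, and a gene was called where its p adjusted by the Benjamini-Hochberg method over all genes was under 0.05. With 3 arrays, precision is limited throughout.

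Proximal tubule cells clear drugs, toxins and metabolic waste from blood by taking them up across the basolateral membrane and releasing them into urine across the apical membrane. The organic anion carriers exchange their substrates for dicarboxylates that sodium-coupled carriers have brought into the cell, whereas organic cations enter down the membrane potential and leave in exchange for protons. Carnitine is recovered from the filtrate by related carriers of the same SLC22 family.

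Of the 9 transporters, Slc47a1, the apical exchanger that releases organic cations into urine, was the only gene called, and it was higher in G200. None was called lower. Among all 14179 genes, 11.5% were called higher and 26% lower, so 1 of 9 higher (11.1%) was close to the share of all genes. No transporter reached the thresholds of the methods, an unadjusted p under 0.05 and a ratio of at least 2. The p was here that of limma in place of the t-test of the methods, and 4.06% of all genes reached both. The median log2 ratio of the 9 transporters was 0.04, with 0.04, 0.04 and -0.02 on replicates 1, 2 and 3, against -0.05 over all genes. At an unadjusted p under 0.05, 2 of the 9 passed, Slc47a1 and Slc22a12.

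These counts depended on how the dyes were balanced. With each array centred on its median in place of the loess curve, the median of all genes stood at a log2 ratio of 0.27 and 5 transporters were called higher, as 4956 genes were called higher and 1268 lower (79.6% of calls higher). With no balancing of the dyes, the median of all genes was 0.62 and 7 transporters were called higher, with 8010 genes called higher and 304 lower (96.3% higher). With loess, 1629 genes were higher and 3689 lower (30.6% higher). Relative to the median of all genes, the median of the transporters was 0.09 above it with loess and 0.25 above it in both other scalings.

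**Figure D1:**
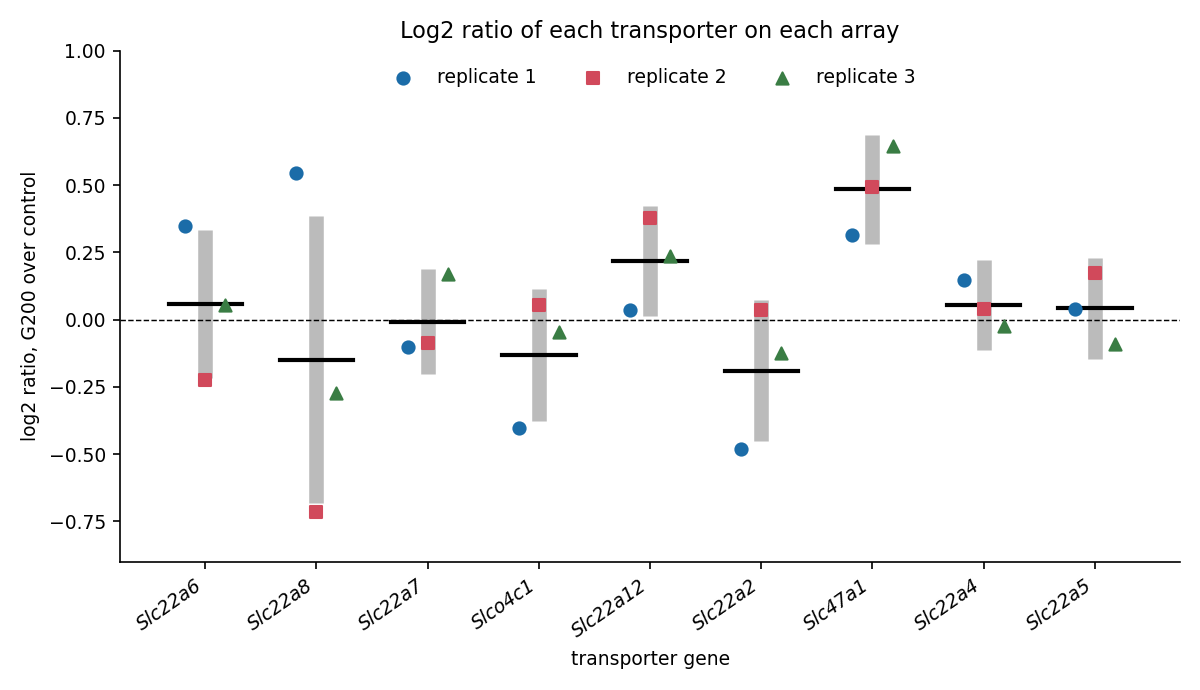
Log2 ratio of G200 over control (y axis) for each of the 9 transporters (x axis). Points are the 3 arrays, black lines their mean, and grey bars the 95% interval of the mean from limma. Slc47a1 lay above 0 on all 3 arrays (0.31 to 0.65), while the points of Slc22a8 spread from -0.71 to 0.54. The means of Slc22a8, Slc22a7, Slco4c1 and Slc22a2 were below 0 here and above 0 with either other scaling of the dyes.

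The basolateral exchangers Slc22a6 (OAT1) and Slc22a8 (OAT3) bring organic anions such as p-aminohippurate, many drugs and uremic toxins into the cell. Their genes are neighbours in the rat, with no other protein-coding gene lying wholly between them. For Slc22a6 the log2 ratio was 0.35, -0.22 and 0.05 on replicates 1, 2 and 3. The ratios lay on both sides of 0, with replicate 1 high and replicate 2 low. The mean was 0.06 ± 0.29 (SD over the arrays, 95% interval -0.22 to 0.33, adjusted p = 0.707). Slc22a6 was called higher with median centring (0.82, adjusted p = 0.0379) and with no balancing of the dyes (1.18, adjusted p = 0.0104).

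For Slc22a8 the log2 ratio was 0.54, -0.71 and -0.27 on the same arrays. The order of the arrays was that of Slc22a6, with a wider range. The net spot intensity of Slc22a8 was 509, 518 and 505 in the green control channel. In the red G200 channel it was 2242, 435 and 841. The control values were nearly equal, and the G200 values were far apart. After normalization of both colours the control channels spanned 0.11 on the log2 scale and the G200 channels 1.37, a 2.59-fold range. The SD of the Slc22a8 ratio, 0.64, was at percentile 98.7 of all genes. Its mean of -0.15 had a 95% interval of -0.68 to 0.39 (adjusted p = 0.619), so a change of that size in either direction was within the error. Without replicate 1 the mean was -0.49 and the gene was called lower (adjusted p = 0.0175), and without replicate 2 it was 0.13. The mean turned to 0.51 with median centring and to 0.87 with no balancing of the dyes. The difference between Slc22a6 and Slc22a8 within an array was -0.20, 0.49 and 0.33, so it changed sign among the arrays (mean 0.21 ± 0.36, exact sign-flip p = 0.5, two-sided, where 0.25 is the smallest p that 3 arrays allow).

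The start of Slc22a8 is shown because this gene varied the most of the 9 among the G200 samples and because its window alone held a motif searched for in the transporters. RefSeq promoters of the assembly GRCr8, from 250 bases before a gene's start to 50 after it, were found for 7 of the 9 genes. Slc22a6 and Slc47a1 had no entry. Hepatocyte nuclear factors are known to act on several of these genes in the tubule. The HNF1 half-site GTTAAT, searched on both strands, was in 1 of the 7 windows and in 7.45% of all 33469 promoters. The HNF4 motif CAAAGTCCA was in 0 of the 7 and 0.391% of all, and the BCL6 core TTCCTNGAA in 0 of the 7 and 1.71% of all. In Slc22a8 (chr1:214927034-214927333, plus strand, 5′ to 3′) the half-site, in capitals, begins 93 bases before the start of the gene.
Slc22a8: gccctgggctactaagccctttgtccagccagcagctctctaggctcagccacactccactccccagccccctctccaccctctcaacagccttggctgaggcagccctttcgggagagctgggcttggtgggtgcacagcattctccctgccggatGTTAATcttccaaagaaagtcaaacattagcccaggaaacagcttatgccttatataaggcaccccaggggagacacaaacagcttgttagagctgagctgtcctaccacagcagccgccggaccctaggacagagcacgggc
Such a match describes letters only and says nothing of whether a factor binds there. The share of G and C was 67.7% for Slc22a4 and 73.7% for Slc22a5, the carnitine carriers, against 47.0% for Slc22a12 to 64.7% for Slco4c1 in the other 5 windows and a median of 51.7% over all promoters.

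Slc22a7 (OAT2) and Slco4c1 take up further anions, Slco4c1 among them cardiac glycosides and thyroid hormones. For Slc22a7 the log2 ratio was -0.10, -0.09 and 0.17. The ratios were split around 0 and the mean was -0.01 ± 0.15 (95% interval -0.20 to 0.19, adjusted p = 0.948). For Slco4c1 the log2 ratio was -0.40, 0.06 and -0.05. Replicate 1 was low and the others were near 0, with a mean of -0.13 ± 0.24 (95% interval -0.38 to 0.11, adjusted p = 0.340). Both means changed sign without replicate 1 (0.04 for Slc22a7 and 0.00 for Slco4c1). They were above 0 under both other scalings of the dyes, and both were called higher with no balancing (adjusted p = 0.0277 and 0.0443). Both genes had low net intensities. Slc22a7 read 67 to 72.5 in the control and 70 to 152 in G200, and Slco4c1 69 to 77.5 and 98 to 115.

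Slc22a12 (URAT1) is the apical exchanger that reabsorbs urate. Its log2 ratio was 0.04, 0.38 and 0.24. All 3 ratios were above 0, with replicate 1 the lowest and close to 0. The mean was 0.22 ± 0.17, a 1.16-fold higher level in G200 (95% interval 0.01 to 0.42). It passed before adjustment but not after it (adjusted p = 0.0883), so it was not called. Without replicate 1 the mean of 0.31 passed (adjusted p = 0.0443), and the adjusted p over all alternative settings ran from 0.00644 to 0.302. Of the 6 further genes in the urate list, only Slc17a1 and Slc17a3, apical phosphate and urate carriers, could be tested. Their mean log2 ratios were 0.03 (95% interval -0.15 to 0.21) and -0.02 (95% interval -0.19 to 0.15), and neither was called. Slc2a9, Slc17a2 and Slc17a4 had no probe well above background on all 3 arrays in 1 colour, and Slc16a9 had no probe matched to it.

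Organic cations such as creatinine and metformin enter the tubule cell through Slc22a2 (OCT2) and leave it through Slc47a1 (MATE1). For Slc22a2 the log2 ratio was -0.48, 0.04 and -0.12. Replicate 1 was low and the others were nearer 0. The mean was -0.19 ± 0.27, the lowest of the 9 transporters (95% interval -0.45 to 0.07, adjusted p = 0.207). Its sign turned, and it was called higher, with median centring (0.60, relative to the median of all genes 0.34, adjusted p = 0.0178) and with no balancing of the dyes (0.96, relative 0.34, adjusted p = 0.00714).

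For Slc47a1 the log2 ratio was 0.31, 0.49 and 0.65. All 3 arrays were above 0. On the normalized log2 scale the control channels of Slc47a1 read 7.55, 7.59 and 7.37 and the G200 channels 7.87, 8.08 and 8.02. Before any balancing of the dyes, the control spots had net intensities of 95.5, 107 and 82.5, and the G200 spots 340, 222 and 283. The mean of 0.48 ± 0.17 was a 1.40-fold higher level in G200 (95% interval 0.28 to 0.69, adjusted p = 0.00790) and stood at percentile 97.7 of all genes. The mean was above 0 in all 14 alternative settings (0.40 to 1.31). Those that change only a filter, probe averaging or the test leave the mean of its 1 probe at 0.48 by construction. Relative to the median of all genes it was 0.45 to 0.75 above. The call was lost without replicate 3 (mean 0.40, adjusted p = 0.0719) and with the t-test of the methods, where the adjusted p was 0.0784 between the channels and 0.145 for the ratios.

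**Figure D2:**
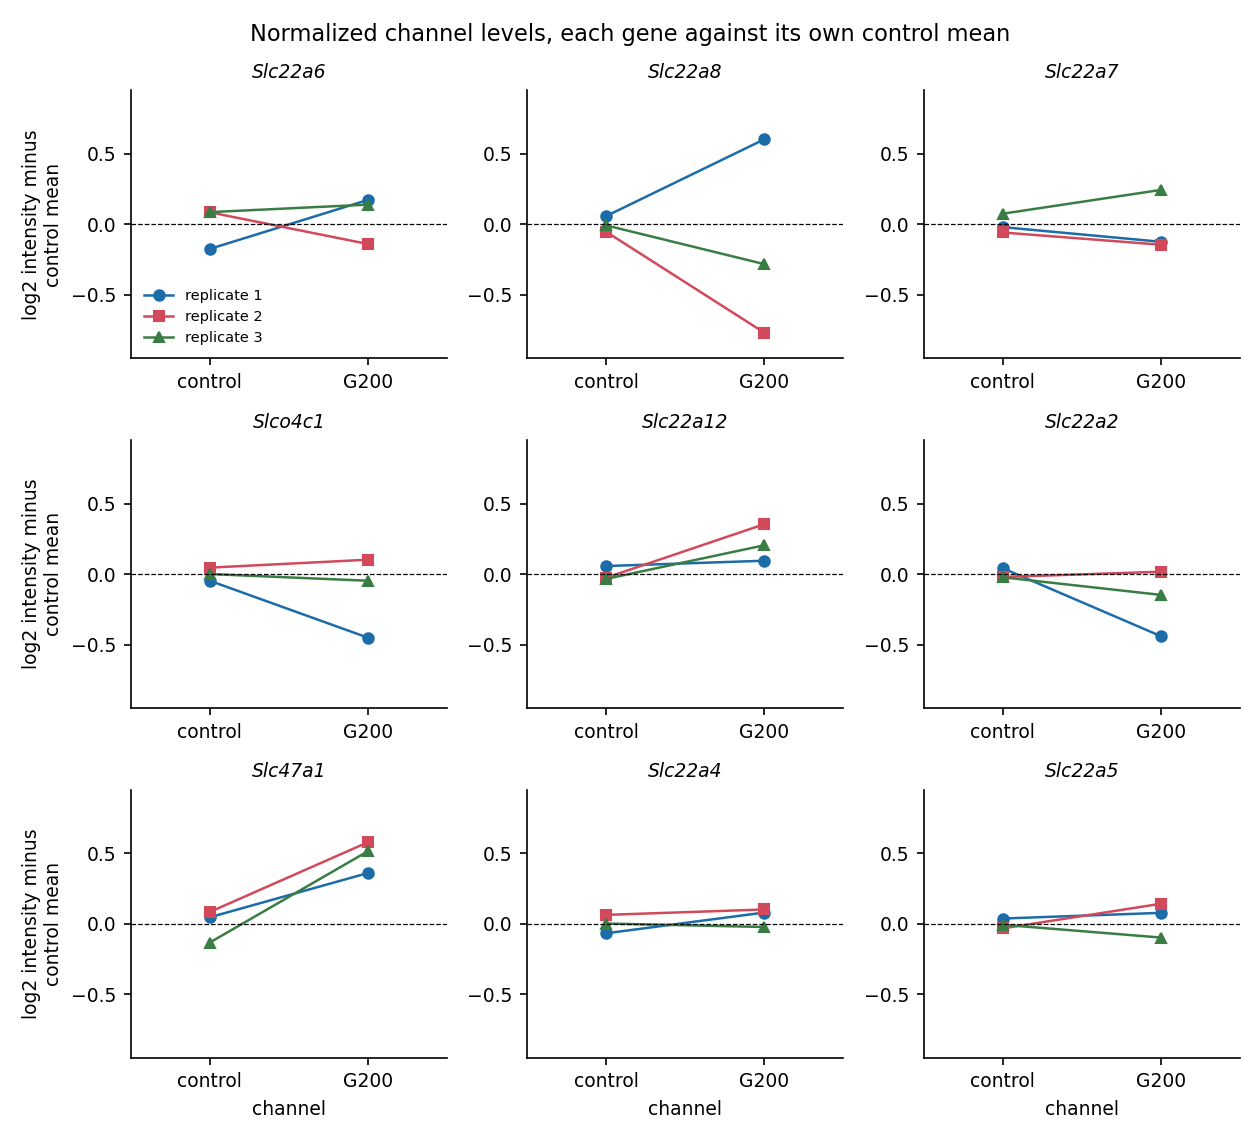
Normalized log2 intensity in the control (left) and G200 (right) channel of each array, minus the mean of that gene's own control channels (y axis), with 1 panel per gene and 1 line per array. The control channels count as 1 sample. The G200 points of Slc47a1 lie above its control points, and the G200 points of Slc22a8 span 1.37 against 0.11 in the control.

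The 2 steps of cation transport were also compared within each array. The log2 ratio of Slc47a1 minus that of Slc22a2 was 0.79, 0.46 and 0.77. Slc47a1 was above Slc22a2 on each of the 3 arrays, by 0.67 ± 0.19 on average, a 1.60-fold difference between their ratios (exact sign-flip p = 0.25, two-sided, the smallest that 3 arrays allow). The difference had the same sign under all 14 alternatives. Those that change only a filter, probe averaging or the test cannot move it, as each gene has 1 probe. It was 0.35 with median centring and with no balancing of the dyes, which differ by a constant per array and so must give the same value. In the deposited log ratio it was 0.84. These 2 genes had the highest and the lowest mean of the 9, and 3 arrays are too few for this test to pass.

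**Figure D3:**
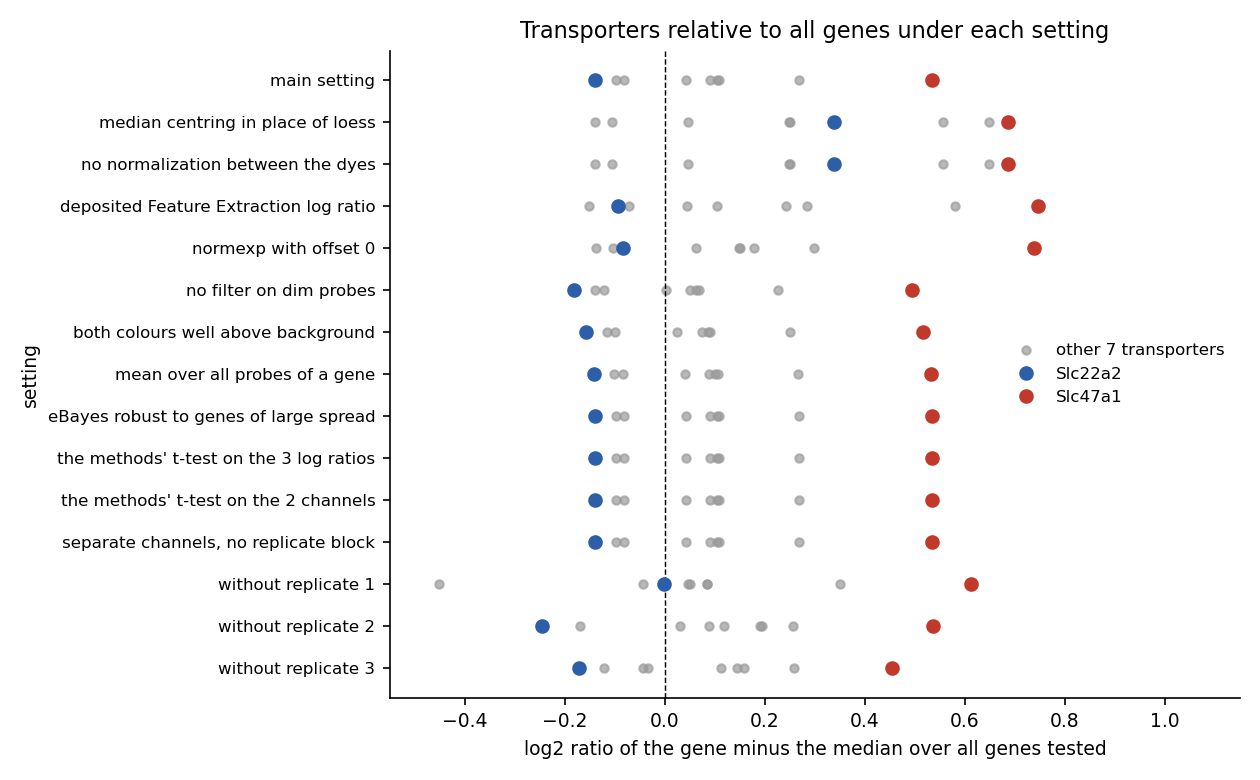
Log2 ratio of each transporter minus the median of all genes tested (x axis) under the setting used here and each of 14 alternatives (y axis). Slc47a1 is at 0.45 to 0.75, and Slc22a2 at -0.25 to 0.34, above 0 with median centring and with no balancing of the dyes.

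Slc22a4 (OCTN1) carries ergothioneine and Slc22a5 (OCTN2) carries carnitine with sodium. For Slc22a4 the log2 ratio was 0.15, 0.04 and -0.02. The ratios were close together, and the SD of 0.09 was at percentile 32.1 of all genes. The mean was 0.05 (95% interval -0.11 to 0.22, adjusted p = 0.567). Slc22a4 was called higher with median centring (0.51, adjusted p = 0.0387) and with no balancing of the dyes (0.87, adjusted p = 0.0128). For Slc22a5 the log2 ratio was 0.04, 0.17 and -0.09. The values lay around 0, with a mean of 0.04 ± 0.13 (95% interval -0.15 to 0.23, adjusted p = 0.694). Slc22a5 had the dimmest spots of the 9, with net intensities of 36.5 to 38 for the control and 38.5 to 73 for G200, and its red spot was 1.82 times the local background at the lowest. In the deposited log ratio its mean was 0.56 (adjusted p = 0.102), and with only the offset removed it was 0.10. In the rat genome Slc22a21, a further gene of the family, is the only protein-coding gene wholly between Slc22a4 and Slc22a5, and no probe was matched to it.

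The transporters differed in how the arrays were ordered. Replicate 1 had the lowest ratio of the 3 arrays for 5 genes (Slc22a7, Slco4c1, Slc22a12, Slc22a2 and Slc47a1) and the highest for 3 (Slc22a6, Slc22a8 and Slc22a4). The G200 channel varied more than the control channel for 8 of the 9 genes. The exception was Slc47a1, with an SD of 0.12 in the control and 0.11 in G200. The median SD over the 9 genes was 0.06 in the control and 0.17 in G200, against 0.06 and 0.13 over all genes, of which 80% varied more in G200. By the distance between their 3 ratios, the named genes nearest to Slc47a1 were Pepd, Tmed6 and Aco1 (0.07, 0.09 and 0.11 on the log2 scale). Those nearest to Slc22a2 were Zmat2, Lig4 and Cd200 (0.03, 0.03 and 0.05).

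Other genes of organic ion transport were read from 8 lists with 66 genes, of which 62 had a probe and 46 could be tested. Of these, 6 were called higher (13%) and 16 lower (34.8%), and their median log2 ratio was -0.06. Among all genes the shares were 11.5% and 26%. With median centring 18 were higher and 5 lower, and with no balancing of the dyes 27 and 1. The counts of single lists below are those with loess unless stated. None of the 46 was called after adjustment by the t-test of the methods applied to ratios and 1 by that test applied to channels, and without replicate 3 limma called 2 higher and 8 lower.

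Among the remaining SLC22 carriers, 0 of 8 tested genes were called higher and 3 lower, with a median of -0.25. Slc22a18 had a mean of -0.56 (adjusted p = 0.00463) and was below 0 on 3 of 3 arrays. Slc22a15 had a mean of -0.55 (adjusted p = 0.00704), also below 0 on 3 of 3 arrays, but -0.10 on its other probe. Both means were above 0 with median centring (0.22 for Slc22a18 and 0.10 for Slc22a15) and with no balancing of the dyes, but below the median of all genes in all 14 alternatives (by 0.05 and 0.17 at the least). Over these the call was lost in 3 and the mean reversed in 2 for Slc22a18, and in 5 and 2 for Slc22a15. Slc22a3 and Slc22a14 had only dim probes, and Slc22a16 and Slc22a21 had none.

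The SLCO carriers take up bile acids, steroid conjugates and other large anions, and 2 of 6 tested were called higher and 3 lower, with a median of -0.37. Slco1a6, a kidney carrier, had ratios of 1.02, 0.61 and 0.70. All 3 were above 0 (mean 0.78, 1.71-fold, adjusted p = 0.00276). Slco1a1, a carrier of the apical membrane in the tubule and of liver, had a mean of 0.36 (adjusted p = 0.00870, higher on 3 of 3 arrays). Slco1b2, the uptake carrier of hepatocytes, had ratios of -1.90, -2.24 and -2.62. This was the lowest mean of the 46 genes, -2.25 (95% interval -2.58 to -1.92, adjusted p = 0.000734). It was -3.20 with only the offset removed and -3.67 in the deposited log ratio, both outside that interval, so its size depends on the background correction. A second Slco1b2 probe, well above background in G200 on only 1 of 3 arrays, gave -0.76. With both probes averaged the mean of Slco1b2 was -1.51 (adjusted p = 0.000858). Slco1a4 had a mean of -1.34 (adjusted p = 0.000734) and Slco4a1 one of -0.87 (adjusted p = 0.00377), both lower on 3 of 3 arrays. With no balancing of the dyes Slco1a4 was at -0.50 and not called (adjusted p = 0.102), and Slco4a1 was at 0.07. With median centring Slco4a1 was not called (-0.28, adjusted p = 0.0821). Slco1c1, Slco2a1, Slco2b1 and Slco5a1 were too dim to test.

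Among the pumps that export organic anions and drugs with the energy of ATP, 0 of 7 were called higher and 4 lower, with a median of -0.63. Abcc2 (MRP2), an apical pump for conjugates in tubule and liver, had ratios of -0.86, -1.19 and -1.27. All 3 were below 0 (mean -1.11, adjusted p = 0.00112). The mean of Abcc2 was -1.67 with only the offset removed and -1.86 in the deposited log ratio. Abcc4 (MRP4), an apical anion pump of the tubule, had a mean of -0.91 (95% interval -1.12 to -0.70, adjusted p = 0.00137), but its other probe, also well above background, gave 0.05. With both probes averaged the mean of Abcc4 was -0.43 (adjusted p = 0.00636), so its size depends on the probe. Abcc6 had a mean of -0.79 (adjusted p = 0.00174) and Abcc5 one of -0.63 (adjusted p = 0.00188), where a second Abcc5 probe, well above background in the control on 2 of 3 arrays, gave -0.01 and the mean turned to 0.18 with no balancing of the dyes. Each was lower on 3 of 3 arrays. With median centring Abcc4 (-0.38, adjusted p = 0.0850), Abcc5 (-0.18, adjusted p = 0.261) and Abcc6 (-0.37, adjusted p = 0.115) were not called, and with no balancing of the dyes none of the 4 was called lower, with means of -0.39, -0.03 and -0.01 for Abcc2, Abcc4 and Abcc6. Slc47a2, Abcb1a, Abcc3 and Abcc10 were too dim to test.

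**Figure D4:**
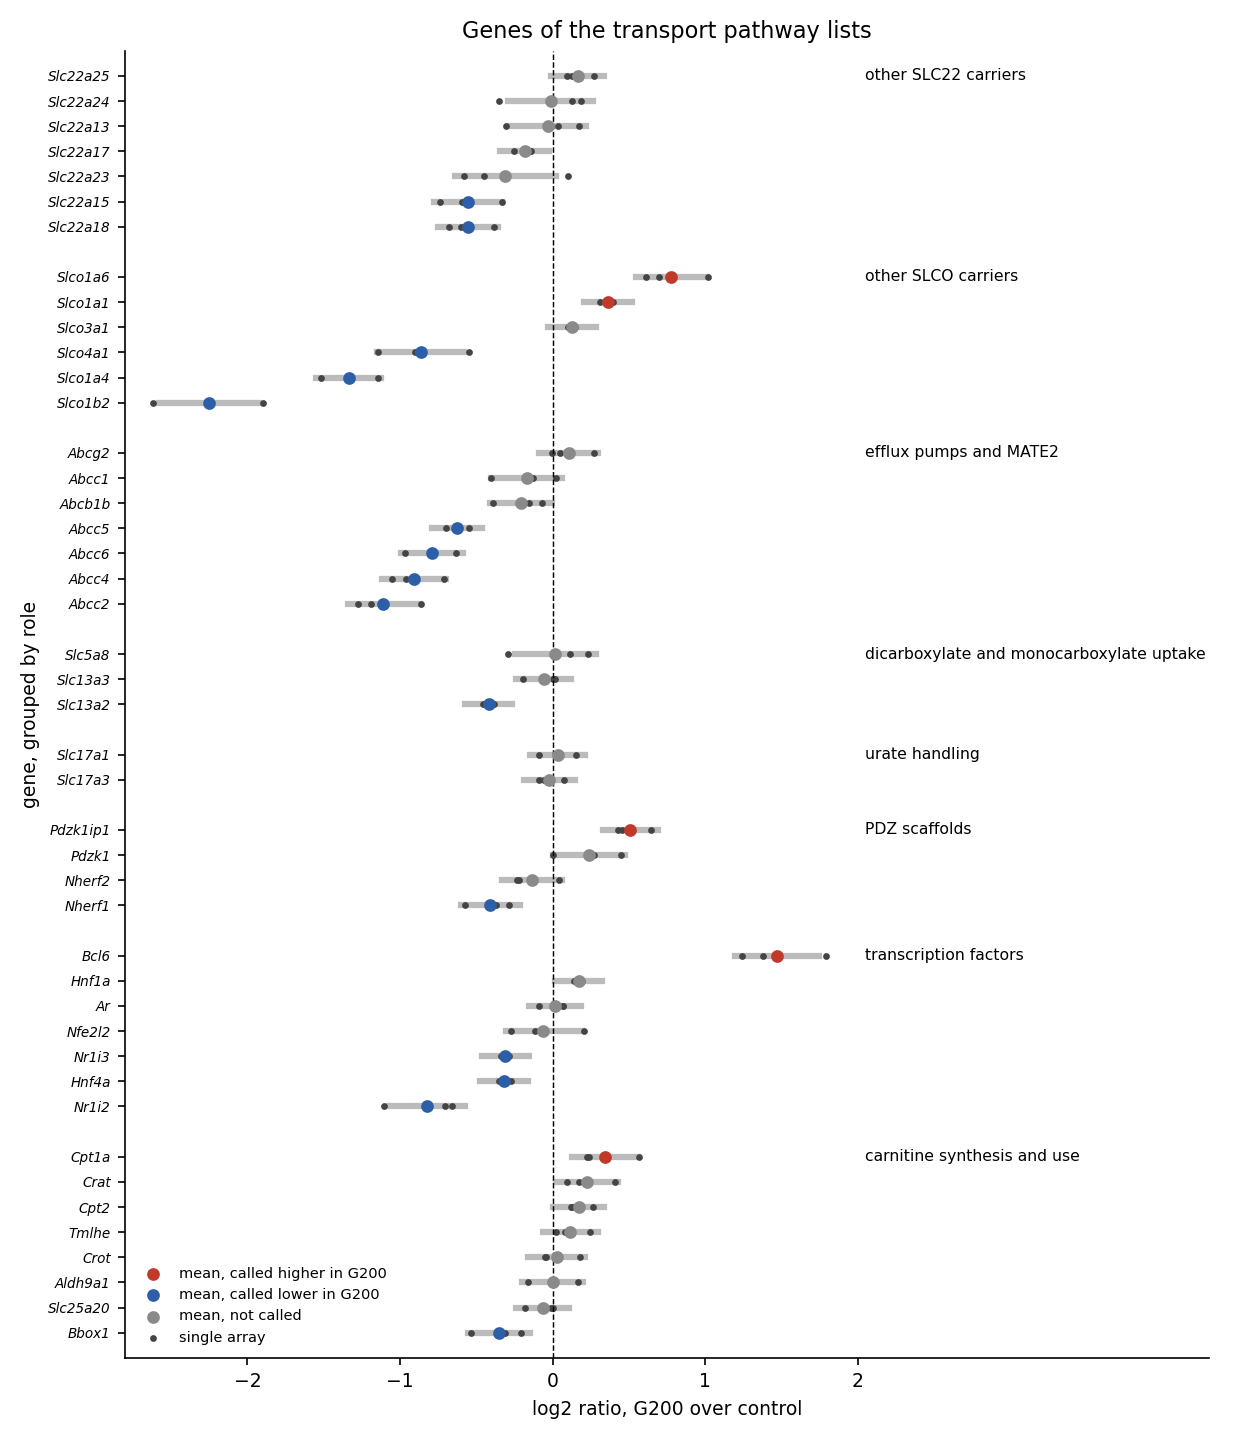
Log2 ratio of G200 over control (x axis) for 44 of the 46 tested genes of the 8 transport lists (y axis, grouped by role). Small points are single arrays, large points their mean, colored by the call, and grey bars the 95% interval from limma. Bcl6 (1.47) and Slco1b2 (-2.25) are at the ends, and Nr1i3 and Bbox1 were dim in G200. Of the genes shown as lower, 8 (Slc22a15, Slc22a18, Slco4a1, Abcc5, Slc13a2, Nherf1, Hnf4a and Nr1i2) had a mean above 0 with no balancing of the dyes, though below the median of all genes.

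Of the carriers that bring in the dicarboxylates or monocarboxylates for anion exchange, 0 of 3 were called higher and 1 lower, with a median of -0.06. Slc13a2 (NaDC1), the apical citrate carrier, had ratios of -0.46, -0.39 and -0.42. The 3 arrays were close together (mean -0.42, adjusted p = 0.00531), and the mean was 0.21 with median centring. Slc13a5 and Slc5a12 were too dim to test. Of 4 genes of the PDZ scaffold that holds such carriers at the apical membrane, 1 was called higher and 1 lower, with a median of 0.05. Pdzk1ip1, a membrane protein that binds the scaffold, had a mean of 0.51 (adjusted p = 0.00468, higher on 3 of 3 arrays). Nherf1 had a mean of -0.41 (adjusted p = 0.0115, lower on 3 of 3 arrays), which was 0.11 with median centring.

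Of the transcription factors known to act on these genes, 2 of 8 were called higher and 3 lower, with a median of -0.02. Bcl6, best known as a repressor and also known to activate the Slc22a6 and Slc22a8 genes of the rat, had ratios of 1.24, 1.79 and 1.38. Its mean of 1.47 was a 2.77-fold higher level (95% interval 1.19 to 1.75, adjusted p = 0.000963) and the highest of all genes tested. Neither Slc22a6 nor Slc22a8 was called with loess on all 3 arrays. Slc22a6 was called higher with median centring and with no balancing of the dyes, as were 4956 and 8010 of all 14179 genes. Slc22a8 was called under neither of these 2 scalings (adjusted p = 0.260 and 0.0649). A link between Bcl6 and the ratios of these 2 genes was not tested. Hnf4a had ratios of -0.33, -0.27 and -0.35, close together and below 0 (mean -0.32, adjusted p = 0.0127), and stood at 0.15 with no balancing of the dyes. Its mean was -0.68 with only the offset removed and -0.62 in the deposited log ratio. Nr1i2, the xenobiotic receptor PXR, had a mean of -0.82 (adjusted p = 0.00296, lower on 3 of 3 arrays) and stood at 0.04 with no balancing of the dyes. Nr1i3 (CAR) was not well above background in G200 and was called lower there (adjusted p = 0.0133), a call lost in 4 of 13 alternatives. The size of a change cannot be read from spots this dim, and the call is open to dye bias. Ppara was too dim to test and Hnf4g had no probe.

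Of the genes that make or use carnitine, 1 of 8 was called higher and 1 lower, with a median of 0.07. With median centring 6 were called higher and 1 lower (median 0.74, 0.47 above that of all genes), and with no balancing of the dyes 7 and 0. Cpt1a, the mitochondrial carnitine acyltransferase that admits long-chain fatty acids, had ratios of 0.57, 0.23 and 0.24. All were above 0, with replicate 1 the highest (mean 0.34, adjusted p = 0.0286). The call was lost in 5 of 14 alternatives, among them those without replicate 1 (mean 0.23, adjusted p = 0.0985) and without replicate 3. Bbox1, the last enzyme of carnitine synthesis, was not well above background in G200 and was called lower there (adjusted p = 0.0218), with the call lost in 5 of 13 alternatives.

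The markers of the proximal tubule, where these transporters work, were present. Of 10 such genes 9 were tested, 3 were called higher and 1 lower, and their median was 0.26. The summed net intensity of the list was 73011, 78400 and 73652 in the control and 227765, 151382 and 184070 in G200, and after dye balancing the log2 ratio of the sum was -0.12, 0.26 and 0.07. Slc7a13, the brightest, had a mean of 0.33 (95% interval 0.03 to 0.64, adjusted p = 0.0837). Aqp1 (0.41), Cubn (0.45) and Lrp2 (0.26) were called higher and Miox (-0.25) lower, while another Lrp2 probe gave -0.13. Without replicate 3, and with either form of the t-test, 0 of the 9 were called. Over the 14 alternatives the call was lost in 3 for Aqp1, 6 for Cubn and 7 for Lrp2 (0.06 with its probes averaged), and that of Miox was lost in 8 and its mean reversed in 2. Slc5a12 was too dim. With median centring 8 of the 9 markers were called higher, Miox (0.64) with them, beside 5 of the 9 transporters and 4956 of all 14179 genes. In whole tissue a change in the share of a cell type and a change in RNA per cell cannot be told apart, and the part of either in the ratio of Slc47a1 was not tested.

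Several of the transport genes that were lower are also genes of liver, as are Slc22a7 and Slco1a1. The liver marker list was lower in full, with 9 of 9 tested genes called and a median of -2.98 (-1.60, -3.15 and -4.40 on replicates 1, 2 and 3). Its summed net intensity was 89767, 127997 and 124198 in the control and 83605, 19582 and 9489 in G200, with a log2 ratio of the sum of -1.81, -3.32 and -4.78 after dye balancing. Tf was the brightest liver gene by the mean log2 intensity of both colours (mean ratio -2.54), and Alb, Apoa1, Apoc1, Ttr, Serpina1, Fgb, Ahsg and Cyp2e1 were lower too, at means of -3.82, -2.45, -4.05, -3.72, -2.72, -3.32, -2.98 and -1.26. Cps1 was not well above background. With either other scaling of the dyes 8 of the 9 were called lower, and 7 and 8 without replicates 2 and 3. With the variance made robust to genes of large spread, and with either form of the t-test, 0 of the 9 were called, at the same median. Of the 16 transport genes called lower, Slco1b2, Slco1a4, Abcc2 and Abcc6 had their weakest ratio on replicate 1 and their strongest on replicate 3. This was the order of the liver list, and 2 genes (Abcc4 and Nherf1) had the opposite order. The share of all genes in either order was not counted, so these counts have no background to be read against. Bbox1 was too dim in G200 for its order to be read. Slc22a7 did not follow the order of the liver list, with 0.17 on replicate 3. Slco1a1 was called higher, with 0.39, 0.31 and 0.38 on replicates 1, 2 and 3. The part of liver RNA in these ratios was not tested.

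**Figure D5:**
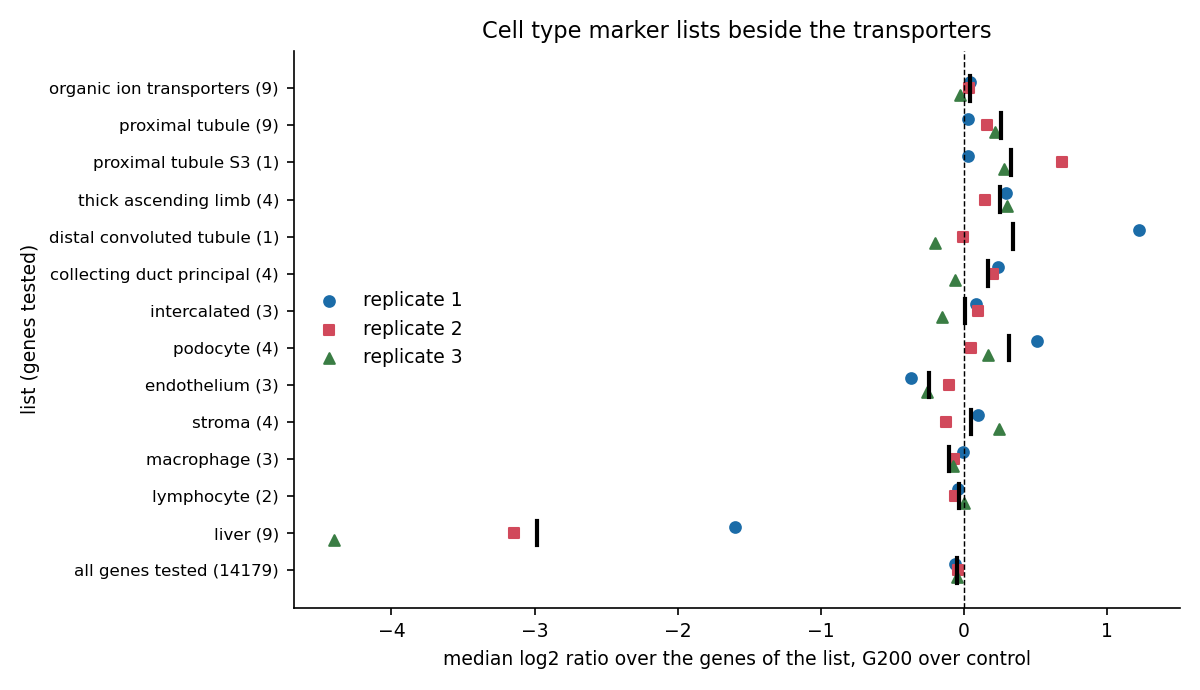
Median log2 ratio of G200 over control (x axis) over the genes of each cell type list and of the 9 transporters (y axis, with the number of genes tested). Points are the 3 arrays, and the black line is the median of the means over arrays. The liver list (-1.60 to -4.40) stands far below the transporters (-0.02 to 0.04).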

How the data were processed

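The authors scanned the arrays and deposited Agilent Feature Extraction tables (version 11.5.1.1 per the file headers, 9.3.2.1 in the submitters' processing notes). In these tables every spot has a median intensity, a local background and a log10 ratio (red to green), which the authors made after dye normalization. From the deposited intensities, background was corrected in R 4.3.3 with limma 3.58.1 (normexp, offset 50) and dyes were balanced by loess within arrays. Spots with an outlier mark (635, 736 and 945) and 1377 control spots were left out. Well above background were 59.8%, 62.7% and 62.3% of spots in green and 63.0%, 56.6% and 61.0% in red. Of 30367 probes, 18355 (60.4%) were matched by accession to the RefSeq table of GRCr8. A probe was kept if it was well above background in 1 colour on all 3 arrays, and the brightest stood for its gene. Ratios were tested with lmFit and eBayes, two-sided.

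All 9 transporters are named, as are called or untested genes of each transport list, the brightest and called genes of the cell type lists, and the 3 genes nearest to 2 transporters. Values of 3 further list genes are left out of the text, though they enter every count. The members and lists were chosen with earlier results of these data known, and the motifs with the ratios in view. Only the fit of the ratios and its adjustment were tested on simulated data, drawn as ratios with the spread of the real genes. Alternatives were other background and dye corrections, probe filters and tests, and each array left out. The array paired control and G200. The p-values measure the spread between these arrays.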

Additional observations from a re-analysis of the deposited data

How the results depend on the processing

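Over 14 alternatives, the log2 ratios of Slc47a1, Slc22a12 and Slc22a4 kept their direction (0.40 to 1.31, 0.14 to 1.27 and 0.01 to 0.87). Alternatives that change only a filter, probe averaging or the test cannot move the ratio of a gene with 1 probe, as each transporter had. With median centring, which moved the median of all genes to 0.27, 4956 genes were called higher and 1268 lower, 5 transporters higher, and 18 and 5 genes of the transport lists. The median of the transporters was then 0.51. The ratio turned above 0 for Slc22a8 (0.51), Slc22a7 (0.31), Slco4c1 (0.16), Slc22a2 (0.60), Slc22a15 (0.10), Slc22a18 (0.22), Slc13a2 (0.21), Nherf1 (0.11), Miox (0.64) and Pecam1 (0.14). With no balancing of the dyes (median of all genes 0.62) the counts were 8010 and 304, 7 transporters higher, and 27 and 1 list genes, with a transporter median of 0.87. The ratio turned for Slc22a8 (0.87), Slc22a7 (0.67), Slco4c1 (0.51), Slc22a2 (0.96), Slc22a15 (0.45), Slc22a18 (0.57), Slco4a1 (0.075), Abcc5 (0.18), Slc13a2 (0.57), Nherf1 (0.46), Hnf4a (0.15), Nr1i2 (0.038), Miox (1.00), Slc4a1 (0.34) and Pecam1 (0.49). With the deposited log ratio the transporter median was 0.083 and Slco4c1 stood at 0.024.

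By the methods' t-test applied to ratios, 0 genes were called higher and 2 lower after adjustment (4472 at an unadjusted p under 0.05), with 0 transporters and 0 and 0 list genes (1 transporter unadjusted, against 2 by limma). Applied to channels it called 66 and 294 genes, 0 transporters, and 0 and 1 list genes. As separate channels with no replicate block, limma called 1030 genes higher and 3072 lower, and Slc47a1 passed (adjusted p = 0.00891). Leaving out each array gave 171 to 1613 genes higher and 1404 to 3364 lower, 0 to 2 transporters higher and 0 to 1 lower, and 2 to 7 list genes higher and 8 to 17 lower, with the lowest counts without replicate 3. The ranges were -0.086 to 0.20 for Slc22a6, -0.49 to 0.13 for Slc22a8, -0.095 to 0.041 for Slc22a7, -0.23 to 0.0044 for Slco4c1 and -0.025 to 0.11 for Slc22a5. The cause of these changes was not tested. The offset changed the side of no transporter, and filter, probe averaging and the robust variance could not change it. Signal over background limits Slc22a5 the most, with a red spot 1.82 times its background.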

Other observations

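Other segments and cells of the kidney were read from the marker lists. Their counts stand beside those of all 14179 genes, of which 11.5% were called higher and 26% lower with loess. Of all genes, 4956 were called higher with median centring and 8010 with no balancing of the dyes. High counts under those 2 scalings are therefore not particular to a cell type. In the thick ascending limb, 2 of 4 genes were called higher (median 0.25), and 4 of 4 with either other scaling of the dyes. Umod, the brightest and the source of the main urinary protein, had a mean log2 ratio of 0.87 (ratios 0.98, 0.81 and 0.82, adjusted p = 0.00102), and Cldn16 one of 0.41 (adjusted p = 0.00704). The ratio of Slc12a3, the only gene tested for the distal convoluted tubule, was 1.23 on replicate 1 against 0.00 and -0.20 on the others, and it was not called (mean 0.34, 95% interval -0.30 to 0.98). None of 4 genes of principal cells was called (median 0.17, though 4 of 4 were called higher with median centring, median 0.66, and with no balancing of the dyes, median 1.01), with the brightest, Aqp2, at -0.30 (95% interval -0.55 to -0.05, adjusted p = 0.0600). Of 3 genes of intercalated cells (median 0.01), the brightest, Slc4a1, was called lower (mean -0.68, adjusted p = 0.00345), though it stood at 0.34 with no balancing of the dyes. With either other scaling 2 of these 3 genes were called higher and 0 lower.

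In podocytes, 1 of 4 genes was called higher (median 0.31), and the brightest, Podxl, was at 0.36 (95% interval 0.04 to 0.67, adjusted p = 0.0739). Of 3 endothelial genes (median -0.24), Pecam1 was called lower (mean -0.56, adjusted p = 0.00234), at 0.14 with median centring, and the brightest, Kdr, was at 0.04 (95% interval -0.23 to 0.30). Of 4 stromal genes (median 0.05, with 4 of 4 called higher with either other scaling), Dcn was called higher (mean 1.09, ratios 1.12, 0.70 and 1.44, adjusted p = 0.00308), and the brightest, Col3a1, was at 0.05 (95% interval -0.25 to 0.35). None of 3 macrophage genes (median -0.11, brightest Cd68 at -0.11, 95% interval -0.27 to 0.06) and 2 lymphocyte genes (median -0.03, brightest Ptprc at 0.10, 95% interval -0.06 to 0.27) was called. For the late proximal tubule only Slc7a13 could be tested.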
